A study of Mus musculus with 4 samples.

Results

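The complement genes described here are C1qa, C1qb and C1qc, which encode the chains of the C1q recognition molecule, the components C3 and C4b, the regulators Serping1 (C1 inhibitor) and Cd55 (decay accelerating factor), and the anaphylatoxin receptors C3ar1 and C5ar1. They were taken as a list of gene symbols, with no threshold on their values, and all 9 of 9 were among the 20076 gene rows of the deposited count matrix. Single-cell RNA-seq had been performed on whole dissociated mouse lungs, in 4 libraries. The libraries labelled WT (n = 2) came from ERG fl/fl mice without Cre, and those labelled ERG CKO (n = 2) from CDH5-CreER(T):ERG fl/fl mice, in which a tamoxifen-inducible Cre under the Cdh5 promoter acts in endothelial cells (ECs). The design text gave 5 daily injections of 0.5 mg tamoxifen for both genotypes and lung collection 90 days afterwards, so both groups shared the floxed alleles and the drug. The question addressed was in which lung cells each complement gene was counted, and whether its level in those cells differed between the groups.

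Complement is a proteolytic cascade of plasma and tissue. C1q binds immune complexes or cell surfaces and starts the classical pathway through C1r and C1s, C4 and C2 form the enzyme that cleaves C3, and fragments of C3 and C5 call in leukocytes through C3ar1 and C5ar1. Serping1 inactivates C1r and C1s, and Cd55 speeds the decay of the C3-cleaving enzymes on host cells. The liver makes most plasma complement, and tissue macrophages are a known local source of C1q.

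C1qa, C1qb and C1qc lie side by side on the minus strand of chromosome 4, between chr4:136880129-136898803 of mouse build GRCm38 (mm10), a stretch of 18675 bases. The remaining members are also on minus strands in that build, at chr17:57203970-57228136 for C3, chr17:34728380-34743882 for C4b, chr2:84765387-84775444 for Serping1, chr6:122847138-122856161 for C3ar1, chr7:16246743-16259540 for C5ar1 and chr1:130439027-130462744 for Cd55. The 250 bases before the RefSeq start of C1qb and C1qc are shown because these genes and C1qa had the largest fitted endothelial fold changes among the members, and because ERG is an ETS-family factor. Of the 9 members 6 had an entry in the promoter table, and C1qa, C4b and Serping1 had none. The gene spans above are those of GENCODE, in which C1qc starts further upstream than in RefSeq, so part of its window lies inside the GENCODE span. The letters come from RefSeq (GRCm38.p6), at chr4:136886201-136886450 and chr4:136892915-136893164, and capitals mark the ETS core GGAA on either strand.
C1qb upstream: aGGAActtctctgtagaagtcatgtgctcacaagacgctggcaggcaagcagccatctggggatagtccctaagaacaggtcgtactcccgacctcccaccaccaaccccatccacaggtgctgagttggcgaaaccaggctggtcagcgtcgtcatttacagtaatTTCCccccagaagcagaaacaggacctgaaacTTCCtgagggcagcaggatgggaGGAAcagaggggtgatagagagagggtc
C1qc upstream: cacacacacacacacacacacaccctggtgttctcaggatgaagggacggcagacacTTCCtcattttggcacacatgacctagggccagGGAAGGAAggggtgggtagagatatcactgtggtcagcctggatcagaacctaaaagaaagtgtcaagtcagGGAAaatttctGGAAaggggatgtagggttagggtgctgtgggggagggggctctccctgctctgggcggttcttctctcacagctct

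The core occurred 4 times before C1qb and 5 times before C1qc. It was present in 93.4% of the 32851 promoter windows of the same length, so its presence was no particular feature of these genes. The longer form AGGAAG, which contains the core, occurred 1 time before C1qb and 2 times before C1qc and was present in 29.5% of all windows. A match describes letters only and is not a binding site.

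The matrix held 9363 cells, 1852 to 3097 per library, with 11263911 to 18646776 UMIs (unique molecular identifiers, 1 per counted RNA molecule) and medians of 4611 to 4899 UMIs per cell. Cells were placed in 16 classes from marker genes with no complement gene among them, and 1976 cells stayed in no class. Classes with at least 10 cells in every library were tested (11 classes). Erg, the targeted gene, had 84.9 and 87.5 CPM (counts per 1000000 UMIs of the class in a library) in ECs labelled WT and 106 and 83.3 CPM in ECs labelled ERG CKO (log2 fold change 0.10 ± 0.15 SE, adjusted p = 0.823, edgeR quasi-likelihood test). The Erg counts thus did not show the labelled deletion. Whether the counted tags lie in the deleted part of Erg is not given in the sources used here, so these counts do not check it, and WT and ERG CKO stand for the labelled genotypes. By Xist and Ddx3y counts, replicate 1 of each group came from a female and replicate 2 from a male mouse.

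The members differed in their producing cells, and several shared them (see the heat map of levels by class). C1qa, C1qb and C1qc were highest in interstitial macrophages, C3, C4b and Serping1 in fibroblasts, C3ar1 in interstitial macrophages, C5ar1 in neutrophils and Cd55 in B cells. Of 99 pairs of a member and a tested class, 26 had enough counts to be tested, and 4 were called (Benjamini-Hochberg over the genes of the class, threshold 0.05). All 4 were in ECs and all were higher in libraries labelled ERG CKO. They were C1qa, C1qb, C1qc and Serping1, and DESeq2 called the same 4 pairs. Of all genes tested, edgeR called 3.25% in ECs and 0.00% to 0.714% in the other classes. The C1q genes passed the filter on low counts in ECs only through the libraries labelled ERG CKO. By edgeR 7 pairs had an unadjusted p under 0.05, the other 3 being C3 in alveolar macrophages, C3 in non-classical monocytes and Cd55 in T cells.

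**Figure D1:**
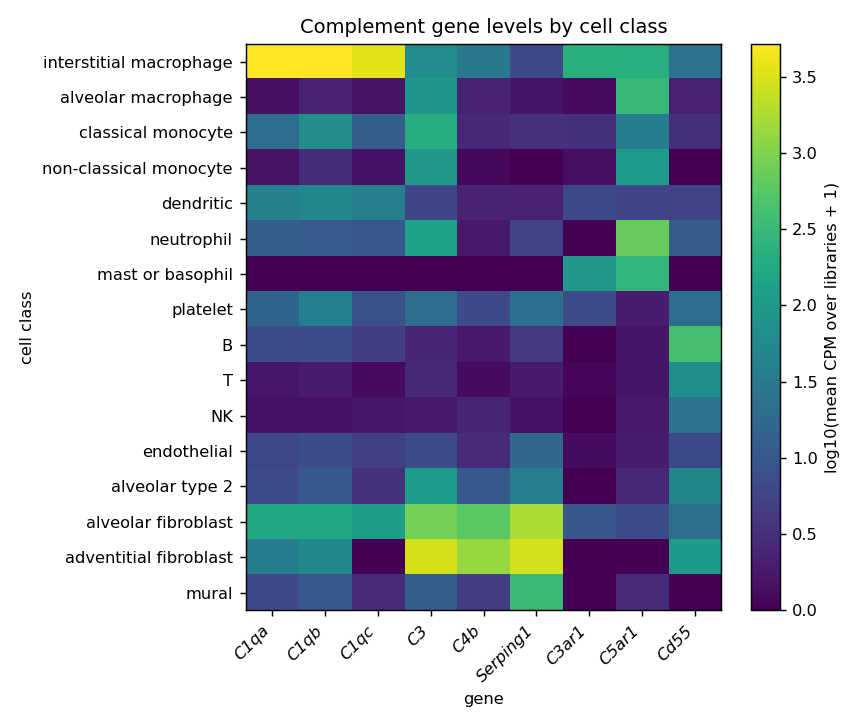
Mean level of each complement gene (columns) in each of 16 cell classes (rows), as log10 of the mean CPM over the libraries plus 1. C1qa, C1qb and C1qc reach their maximum in interstitial macrophages, C3, C4b and Serping1 in the fibroblast rows, C5ar1 in neutrophils and Cd55 in B cells.

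Interstitial macrophages, the tissue-resident macrophages of the lung wall, held 79.9% of all C1q UMIs (the sum of C1qa, C1qb and C1qc) while making up 85 of the 9363 cells. By library they held 81.4% and 93% of the C1q UMIs of the libraries labelled WT and 70.3% and 86.4% of those labelled ERG CKO. The class was named from markers that do not include C1q. Ms4a7 had 762 CPM in the class against 2.82 CPM in all other cells, Apoe 19300 against 554 and Maf 440 against 27.8, whereas Cbr2 was lower in the class (65.8 against 164 CPM).

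The level of C1q within interstitial macrophages differed little between the groups. C1qa stood at 4760 and 5460 CPM in the libraries labelled WT and at 4700 and 5810 CPM in those labelled ERG CKO, and the groups overlapped (log2 fold change 0.03 ± 0.25 SE, adjusted p = 0.997, edgeR). C1qb stood at 4590 and 4210 CPM against 4600 and 6720 CPM. Only the second library labelled ERG CKO was set apart (log2 fold change 0.35 ± 0.30 SE, adjusted p = 0.982, edgeR). C1qc stood at 2980 and 3370 CPM against 3460 and 4200 CPM, with the group labelled ERG CKO slightly above (log2 fold change 0.26 ± 0.26 SE, adjusted p = 0.982, edgeR). None of the 5 members tested in this class was called by edgeR or DESeq2, none had an unadjusted p under 0.05, and the share of all 1542 tested genes called there was 0.00%. The median log2 fold change of these 5 members was 0.33, beside -0.01 over all genes of the class.

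More of these macrophages were captured in the libraries labelled ERG CKO. There were 10 and 13 interstitial macrophages in the libraries labelled WT and 42 and 20 in those labelled ERG CKO, or 0.442% and 0.605% against 1.36% and 1.08% of cells, with 95% Wilson intervals of 0.24% to 0.811%, 0.354% to 1.03%, 1% to 1.83% and 0.7% to 1.66%. The mean share was 0.523% ± 0.115 (SD, n = 2) against 1.22% ± 0.195 (SD, n = 2), a ratio of 2.33, and the shares of the groups did not overlap. The exact two-sided permutation test gave p = 0.333, the smallest that 2 libraries against 2 allow. These cells were shallow in the first library labelled ERG CKO, at a median of 1586 UMIs against 4782.5 to 6937 in the other libraries. Whether shares of dissociated cells follow the tissue was not tested.

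Over whole libraries, C1q stood higher in those labelled ERG CKO without passing the edgeR test. C1qb totalled 34.7 and 33.5 CPM over all cells labelled WT and 68.8 and 73.4 CPM over all cells labelled ERG CKO (log2 fold change 1.06 ± 0.10 SE, adjusted p = 0.0896, edgeR). C1qc totalled 21.3 and 24.5 against 46.7 and 46.2 CPM (1.01 ± 0.13 SE, adjusted p = 0.133, edgeR). C1qa totalled 33.4 and 38.9 against 64.9 and 63.7 CPM (0.83 ± 0.13 SE, adjusted p = 0.229, edgeR). In each of the 3 genes both libraries labelled ERG CKO lay above both labelled WT. None of the 9 members was called in these sums by edgeR, although 4 had an unadjusted p under 0.05, and DESeq2 called 3, the C1q genes. The share of all genes called by edgeR in these sums was 0.00% of 14154. That of DESeq2 is not given here, so its 3 calls have no share beside them. In such sums more cells of a type and more RNA per cell cannot be told apart. The members' median log2 fold change was 0.78, beside 0.00 over all genes tested in whole-lung sums, where Serping1, C3 and Cd55 had values of -0.34, -0.27 and -0.02.

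Within interstitial macrophages the C1q chains were counted in like proportions in each library. Within this class C1qa made up 34.7% to 41.9% of C1q UMIs, C1qb 32.3% to 40.2% and C1qc 24.2% to 27.1% over the 4 libraries. Over all other cells C1qb took the larger part, 39.3% to 64.4% of the C1q UMIs. Of the 85 interstitial macrophages, 73 held UMIs of all 3 genes and 4 held none. Across these cells, which come from 4 libraries of differing depth, Pearson's r of the log2 levels was 0.77 for C1qa and C1qb, 0.84 for C1qa and C1qc and 0.83 for C1qb and C1qc.

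C1q counts were concentrated in very few cells. In the libraries labelled WT, 13 and 10 cells held at least 10 C1q UMIs each, and these cells carried 97.6% and 95.4% of the C1q UMIs. In the libraries labelled ERG CKO, 54 and 23 cells did, carrying 90.5% and 96.1%. Of them 10 and 8, and 35 and 19, were interstitial macrophages. The richest cell alone held 17.4% and 28.1% of the C1q UMIs in the libraries labelled WT and 7.49% and 10.3% in those labelled ERG CKO.

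The C1q UMIs were also spread over more cells in the libraries labelled ERG CKO, where more interstitial macrophages were captured. These macrophages made up 0.442% and 0.605% of cells labelled WT and 1.36% and 1.08% of those labelled ERG CKO. By number, a top 1% of cells can thus take in all of them only in the libraries labelled WT. The measures below are therefore not independent of that share. It took 4 and 2 cells to reach 50% of the C1q UMIs in the libraries labelled WT, and 11 and 6 cells in those labelled ERG CKO. For 90% it took 11 and 6 cells against 53 and 17. The top 1% of cells held 100% and 99.2% of the C1q UMIs in the libraries labelled WT (mean 99.6% ± 0.549, SD, n = 2), and 79.5% and 92.8% in those labelled ERG CKO (mean 86.2% ± 9.38, SD, n = 2). The difference was -13.5 percentage points, the groups did not overlap, and the exact two-sided permutation test gave its smallest possible p of 0.333. The first library labelled ERG CKO was the lowest and also the largest library, and without it the difference was -6.83 points. In the first library labelled WT only 23 cells held any C1q UMI, as many as its top 1% of cells.

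**Figure D2:**
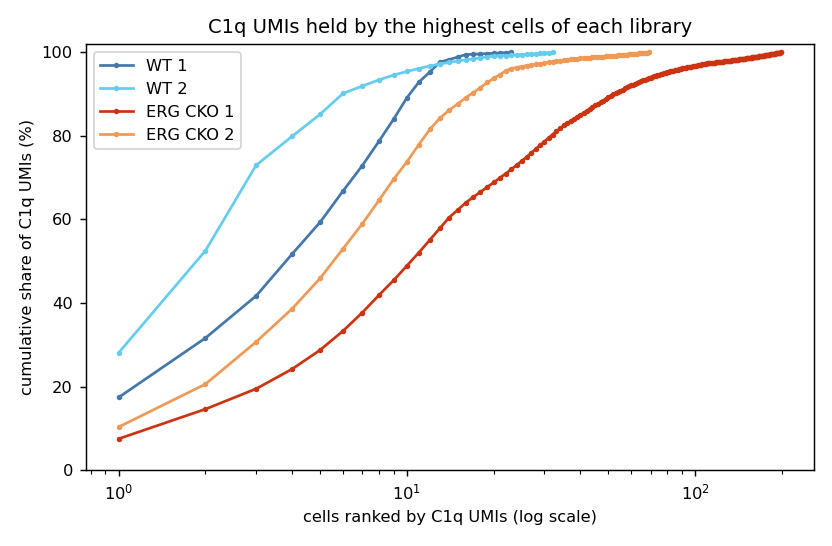
Cumulative share of the C1q UMIs of a library (vertical axis, %) held by its cells ranked from most to fewest C1q UMIs (horizontal axis, log scale), 1 line per library. The WT lines reach 90% within 11 and 6 cells and the ERG CKO lines within 53 and 17 cells.

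C1q UMIs outside the interstitial macrophages are the remainder of the signal. Cells with 1 to 9 C1q UMIs made up 0.444% and 0.936% of the other cells in the libraries labelled WT, and 4.55% and 2.46% in those labelled ERG CKO. The C1q level over all these other cells was 16.7 and 6.81 CPM against 54.2 and 25.1 CPM. Both measures were higher in both libraries labelled ERG CKO. Cells outside interstitial macrophages with at least 10 C1q UMIs numbered 28 in all, 5 in libraries labelled WT and 23 in those labelled ERG CKO. They held 12 to 146 C1q UMIs each. They were 7 ECs, 6 dendritic cells, 4 classical monocytes, 2 B cells, 1 neutrophil, 1 alveolar fibroblast and 7 cells of no class. Of the 28, 23 also held UMIs of Apoe and 12 of Ms4a7, both interstitial macrophage markers, and none was called a doublet. Apoe stood at 554 CPM over all cells outside the class, so an Apoe UMI alone says little, while Ms4a7 stood at 2.82 CPM. Of the 6 dendritic cells 2 held Apoe and 0 held Ms4a7. Mixed droplets and free RNA can give such counts, and their part in them was not tested.

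In dendritic cells the C1q values differed strongly between libraries of the same group. C1qb stood at 90 and 30.1 CPM in dendritic cells labelled WT and at 89.8 and 0 CPM in those labelled ERG CKO, with overlap and no call (log2 fold change -0.05 ± 0.85 SE, adjusted p = 0.998, edgeR). C1qa and C1qc were not called either, while 0.714% of all genes tested in the class were. The first library labelled ERG CKO held 4 of the 6 dendritic cells with at least 10 C1q UMIs. Without this library the fitted log2 fold changes of C1qa, C1qb and C1qc were -7.29, -7.44 and -3.31. They then rest on 0, 0 and 2 UMIs in the second library labelled ERG CKO. Leaving out a library is not the same as leaving out its C1q-rich cells.

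**Figure D3:**
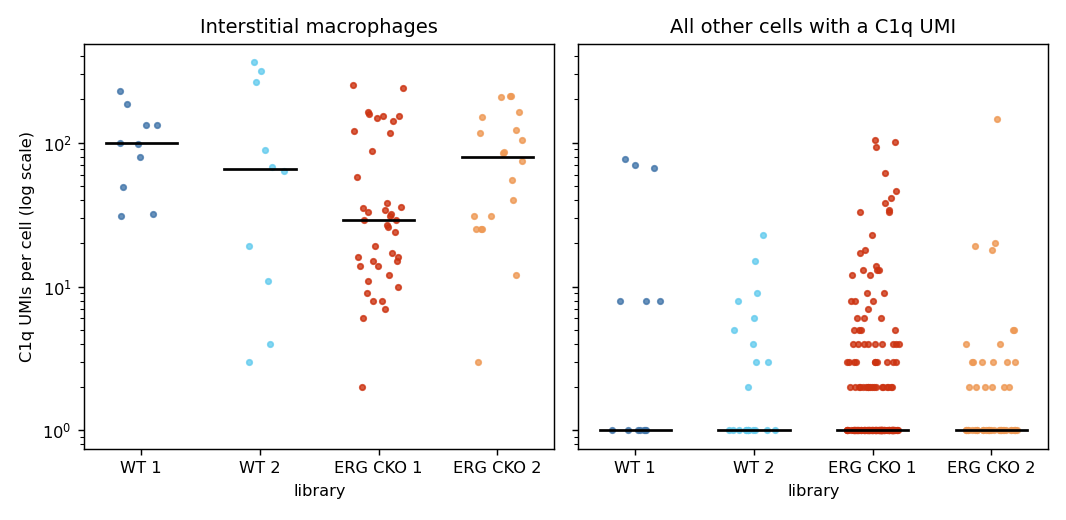
C1q UMIs (C1qa, C1qb and C1qc summed, log scale) in each cell with at least 1, by library, for interstitial macrophages (left) and all other cells (right). Points are cells and black lines are medians over the cells shown. 4 interstitial macrophages without a C1q UMI are not drawn. The median of the other cells is 1 UMI in every library, and the first library labelled ERG CKO has the most points above 10 UMIs.

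ECs line the vessels and are the cells in which Cre acts. They were well marked, with Cldn5 at 4510 CPM against 240 in all other cells and Cdh5 at 1680 against 116. The share of all 10730 genes tested in ECs that was called was 3.25%, and 4 of the 6 members tested there were called. C3 and Cd55 were not. The members' median log2 fold change in ECs was 3.17, beside 0.01 over all genes tested there. C1qa, C1qb and C1qc passed the filter on low counts only through the libraries labelled ERG CKO, where they were high. Their direction was thus set beforehand, so neither their calls nor this median is separate support for a rise.

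C1q counts in ECs labelled WT were near 0. C1qa had 0 and 2 UMIs in the 587 and 709 ECs labelled WT and 70 and 16 UMIs in the 750 and 523 ECs labelled ERG CKO. C1qb had 1 and 1 against 90 and 18 UMIs, and C1qc 1 and 1 against 46 and 16. Both libraries labelled ERG CKO lay above both labelled WT for each chain. The adjusted p was 0.0337 for C1qa, 0.025 for C1qb and 0.0202 for C1qc (edgeR). The fitted log2 fold changes of 4.83 ± 0.89, 5.13 ± 0.86 and 4.39 ± 0.67 (SE) depend on the prior count at such low levels. That of C1qb was 4.04 without the first library labelled ERG CKO and 5.66 without the second. Without either library labelled WT, or without the first labelled ERG CKO, C1qa and C1qc were not called (adjusted p of 0.0507 to 0.0954, edgeR), and C1qb was not called without the second labelled WT (adjusted p = 0.0774, edgeR). The ratio of pooled levels of C1qb was 42.9, from 2 against 108 UMIs, with an exact 95% interval of 11.6 to 359 that covers counting error only.

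The endothelial C1q came partly from a handful of cells. In the first library labelled ERG CKO, 6 of 750 ECs held at least 10 C1q UMIs each and carried 73.3% of the C1q UMIs of its ECs. In the second, 1 EC did, with 38% of them. These 7 ECs held 13 to 46 C1q UMIs, 2 to 83 Apoe UMIs and 5 to 104 UMIs of the endothelial marker Cldn5. Without these cells 55 UMIs in 33 ECs and 31 UMIs in 18 ECs remained in the libraries labelled ERG CKO, at most 5 per cell, against 2 UMIs in 2 ECs and 4 UMIs in 4 ECs labelled WT. The chain proportions in ECs labelled ERG CKO were 34%, 43.7% and 22.3% for C1qa, C1qb and C1qc in the first library and 32%, 36% and 32% in the second. Over all ECs the summed interstitial macrophage markers stood at 243 and 241 CPM against 392 and 195 CPM. Only the first library labelled ERG CKO was thus higher in them. Without the 7 cells the summed C1q levels were 0.732 and 1.25 CPM against 11.9 and 11.3 CPM, and the ratio of pooled C1q levels was 11.5, with an exact 95% interval of 5.09 to 32.3 for counting error. With cells of at least 10 C1q UMIs left out of all classes but interstitial macrophages, C1qb was still called in ECs (log2 fold change 3.58, adjusted p = 0.0337, edgeR), C1qa was not (3.27, adjusted p = 0.0852, edgeR) and C1qc fell under the filter on low counts.

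Shares of cells with a C1q UMI in ECs were set beside those of cell types not known as makers of C1q. In T cells 0.27% and 0% of the cells labelled WT and 1.85% and 0.885% of those labelled ERG CKO held a C1q UMI, at median depths of 5871 to 6363.5 UMIs. The 0 of 266 T cells in the second library labelled WT allows a share of up to 1.13%. In ECs, at median depths of 3980 to 5449 UMIs, the shares were 0.341% and 0.564% against 5.2% and 3.63%. The T-cell shares were thus also higher in the libraries labelled ERG CKO. The EC shares of the libraries labelled WT lay within the T-cell intervals. Those labelled ERG CKO were above the shares of their own T cells (95% Wilson interval 3.83% to 7.03% against 0.941% to 3.61%, and 2.34% to 5.6% against 0.243% to 3.17%, which overlap in the second library). They were not above those of platelets, which held a C1q UMI in 0 of 37 and 0 of 47 cells labelled WT and in 20 of 183 (10.9%) and 5 of 44 (11.4%) labelled ERG CKO, at lower median depths of 934 to 1420 UMIs. In neutrophils the shares were 0% and 0% against 8.54% and 1.15%, so the first library labelled ERG CKO was above its ECs and the second below. By level, C1q stood at 43.9 and 18.1 CPM in ECs labelled ERG CKO and at 138 and 106 CPM in platelets of these libraries. It stood at 45.5 and 19.9 CPM in their B cells and 2.78 and 3.97 CPM in their NK cells. In their non-classical monocytes it stood at 1.75 and 1.36 CPM. The other classes thus lay on both sides of ECs. The part of free RNA in the endothelial counts was not tested. Thinned to 1000 UMIs per cell, 0% and 0% of ECs labelled WT and 2.28% and 0.772% of those labelled ERG CKO held a C1q UMI. Thinning left out 25 ECs in all libraries together, and no member was called in ECs after it.

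Serping1, which encodes the C1 inhibitor, was low in ECs and higher in those labelled ERG CKO. It had 18 and 20 UMIs in ECs labelled WT and 151 and 48 UMIs in ECs labelled ERG CKO, or 6.59 and 6.27 CPM against 32.2 and 17.4 CPM. Means were 6.43 CPM ± 0.225 and 24.8 CPM ± 10.5 (SD, n = 2), the groups did not overlap, and the difference passed the edgeR test (adjusted p = 0.0339, log2 fold change 1.94 ± 0.36 SE). Unlike endothelial C1q these UMIs were spread thinly, over 12 and 15 ECs against 91 and 35 ECs, with at most 8 in a cell. The call was lost without either library labelled WT. It was also lost with cells of at most 10% mitochondrial UMIs and without the CCA alignment of libraries before clustering, where the fold change was smaller.

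Serping1 was concentrated in certain endothelial clusters. In the EC cluster led by Ednrb, Fibin, Igfbp7 and Chst1, 1 of 56 and 2 of 91 cells labelled WT held a Serping1 UMI, against 38 of 152 and 23 of 130 labelled ERG CKO. Its level there was 2.8 and 3.56 CPM against 65.6 and 36.7 CPM, and both libraries labelled ERG CKO stood far above both labelled WT (log2 fold change 3.90, adjusted p = 0.000436, edgeR on this cluster alone). In the remaining ECs the fold change was 1.26 and was not called (adjusted p = 0.262, edgeR). In the cluster led by Emcn and F8 the level was 2.31 and 8.7 CPM against 31.2 and 8.13 CPM, so that only the first library labelled ERG CKO stood out. In the small cluster led by Ccl21a and Mmrn1, a lymphatic pattern, Serping1 was highest of all ECs, at 153 and 223 CPM against 118 and 257 CPM in 3 to 8 cells per library, and the groups overlapped.

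Fibroblast RNA moved in the same direction in ECs. Summed Col1a1, Col1a2, Col3a1, Dcn and Pdgfra stood at 9.88 and 13.5 CPM in ECs labelled WT and 25.4 and 17.4 CPM in ECs labelled ERG CKO. Of the ECs with Serping1, 3 of 12 and 2 of 15 labelled WT and 21 of 91 and 4 of 35 labelled ERG CKO held a UMI of these genes. Without all ECs that did, Serping1 stood at 4.68 and 5.97 CPM against 27.1 and 15.8 CPM and stayed past the threshold (adjusted p = 0.0288, edgeR, log2 fold change 1.99).

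**Figure D4:**
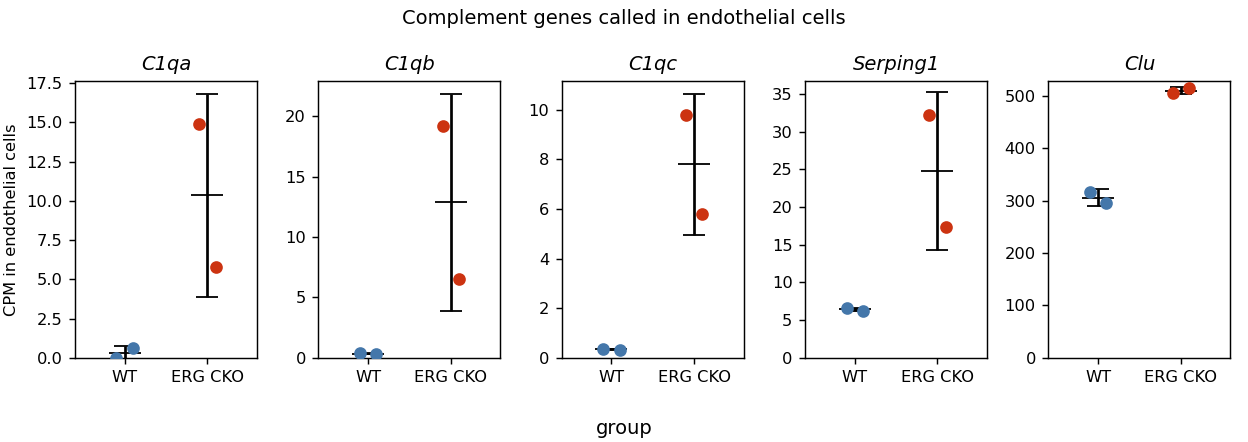
CPM of the 5 complement genes called in ECs (C1qa, C1qb, C1qc, Serping1 and Clu, panels) in the libraries labelled WT and ERG CKO. Points are libraries, the dash is the mean and the bars are SD (n = 2), and each vertical axis starts at 0. The ERG CKO points lie above the WT points in every panel, by far the least in proportion for Clu.

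C3 is the protein on which all complement pathways converge. It had no single dominant source: its largest shares of UMIs were in alveolar macrophages (19.3%), adventitial fibroblasts (16.6%), alveolar fibroblasts (12.3%) and classical monocytes (10.1%), with 20.8% in cells of no class. Per UMI it was highest in adventitial fibroblasts, the collagen-rich fibroblasts around vessels and airways, at 6090 and 1950 CPM in the libraries labelled WT and 3510 and 572 CPM in those labelled ERG CKO. These values rest on 8, 6, 7 and 2 cells, and the groups overlapped.

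In alveolar fibroblasts, the fibroblasts of the gas-exchange wall, C3 stood at 362 and 561 CPM against 1160 and 1260 CPM. Both libraries labelled ERG CKO lay above both labelled WT. The class had 44 and 23 cells against 32 and 7, too few in the last library for a test. With names taken from the clustering of all cells (117, 61, 152 and 22 cells), an alternative chosen after seeing the data, C3 differed by 1.11 ± 0.24 SE on the log2 scale and was not called (adjusted p = 0.0559, edgeR).

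In alveolar macrophages, the phagocytes of the air space, C3 stood at 81.4 and 64.8 CPM against 116 and 93.8 CPM, with no overlap (log2 fold change 0.52 ± 0.16 SE, unadjusted p = 0.00766, adjusted p = 0.621, edgeR). Neither of the 2 members tested there was called, and the share of all genes called was 0.00%. In classical monocytes the order was the opposite, at 210 and 255 CPM against 175 and 186 CPM, and the difference was not called (log2 fold change -0.38 ± 0.20 SE, adjusted p = 0.998, edgeR, in a class where 0.0213% of genes were called). In non-classical monocytes C3 stood at 70.8 and 191 CPM against 85.6 and 62.4 CPM, where only the second library labelled WT was high (log2 fold change -0.98 ± 0.34 SE, adjusted p = 0.846, edgeR, with 0.00% of genes called). It was called lower without WT replicate 1 (-1.41) or ERG CKO replicate 1 (-1.23). In alveolar type 2 cells, which make surfactant, it stood at 129 and 181 CPM against 85.8 and 56.1 CPM from 21, 14, 9 and 8 cells, also without overlap and without a test.

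C4b, the classical pathway component cleaved by C1s, was a fibroblast gene in these lungs. Alveolar fibroblasts held 36.4% and adventitial fibroblasts 25.5% of its UMIs, and 28.7% lay in cells of no class. In alveolar fibroblasts it stood at 190 and 221 CPM in the libraries labelled WT and at 1030 and 900 CPM in those labelled ERG CKO. Means were 205 CPM ± 22.2 and 966 CPM ± 92.6 (SD, n = 2), and the groups were well apart, again with 7 cells in the last library. With names from the clustering of all cells the levels were 94.1 and 97.4 against 352 and 479 CPM and C4b passed the test (adjusted p = 0.00134, edgeR, log2 fold change 2.11 ± 0.26 SE). At the finer clustering resolution of 1.2 (68, 37, 70 and 12 cells) the levels were 200 and 216 against 923 and 905 CPM and it was called as well (2.14 ± 0.28 SE, adjusted p = 0.00407, edgeR). In those fits 0.65% and 0.476% of the genes tested were called. C2, the protease that pairs with C4b, stood at 38 and 34 CPM against 131 and 144 CPM in alveolar fibroblasts and was not tested there.

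In adventitial fibroblasts C4b stood at 2270 and 285 CPM against 1350 and 1430 CPM, and the libraries labelled WT differed from each other by more than the groups did. Among the classes tested, C4b was highest in interstitial macrophages, with only 6 and 2 against 4 and 1 UMIs.

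Serping1 was also mainly a fibroblast gene, with 34.1% of its UMIs in alveolar and 17.5% in adventitial fibroblasts. In alveolar fibroblasts it stood at 1600 and 1590 CPM against 2160 and 1740 CPM, a smaller difference than that of C4b in the same cells. With names from the clustering of all cells the difference was 0.21 ± 0.21 SE on the log2 scale, with an adjusted p of 0.905 (edgeR). Adventitial fibroblasts had 4810 and 2850 CPM against 3250 and 715 CPM and mural cells, the pericytes and smooth muscle cells of the vessel wall, 265 and 237 CPM against 274 and 481 CPM. The endothelial level was thus far below the fibroblast level in every library. Among the classes tested by cell number, Serping1 had its highest mean level in platelets, from 2 and 1 against 10 and 1 UMIs, too few to test, and no member was tested in platelets (0.00% of genes called).

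**Figure D5:**
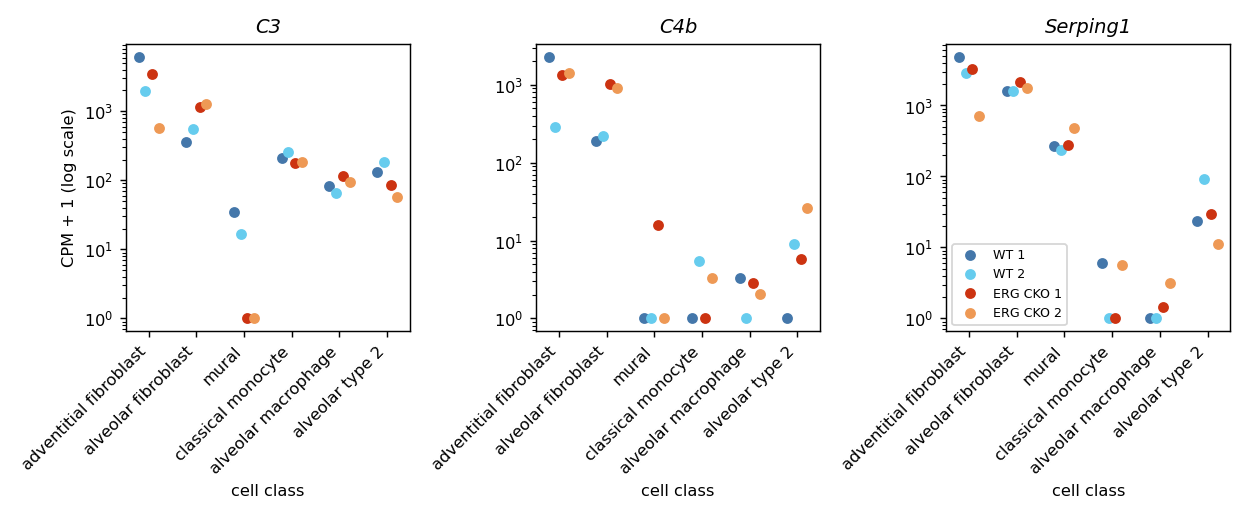
CPM plus 1 (log scale) of C3, C4b and Serping1 in 6 cell classes, with 1 point per library. In alveolar fibroblasts the C3 and C4b points of both ERG CKO libraries lie above both WT points, while in adventitial fibroblasts, with 2 to 8 cells per library, the libraries spread widely.

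Of the receptors, C3ar1 was found mainly where C1q was. Interstitial macrophages held 61.1% of its UMIs, at 253 and 141 CPM in the libraries labelled WT and 156 and 356 CPM in those labelled ERG CKO, and the groups overlapped (log2 fold change 0.33 ± 0.59 SE, adjusted p = 0.982, edgeR). Mast cells or basophils had 133 and 74.6 CPM in the libraries labelled WT, from 11 and 4 UMIs, and 84.4 CPM from 1 UMI in the first labelled ERG CKO, while the second held no such cell. Dendritic cells held a further 10.8% of the UMIs, at 0 and 5.48 CPM against 10.8 and 6.19 CPM, too few for a test. Over whole lungs C3ar1 had 2.38 and 1.88 CPM against 3.22 and 4.17 CPM (log2 fold change 0.78 ± 0.30 SE, adjusted p = 0.641, edgeR).

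C5ar1, the C5a receptor, had most of its UMIs in alveolar macrophages and neutrophils. Neutrophils had the highest level, 794 and 719 CPM against 518 and 763 CPM, and the groups overlapped (log2 fold change -0.22 ± 0.25 SE, adjusted p = 0.987, edgeR; 0.00% of genes called in neutrophils). Alveolar macrophages held 61.9% of its UMIs, at 278 and 295 CPM against 332 and 311 CPM. Both libraries labelled ERG CKO were slightly higher (log2 fold change 0.18 ± 0.13 SE, adjusted p = 0.983, edgeR). Interstitial macrophages had 242 and 76.2 CPM against 318 and 244 CPM (0.79 ± 0.60 SE, adjusted p = 0.982, edgeR). Mast cells or basophils had 242 and 429 CPM in the libraries labelled WT and 169 CPM in the first labelled ERG CKO, from 20, 11 and 3 cells. Non-classical monocytes held 9.66% of the UMIs, at 40.4 and 142 CPM against 144 and 119 CPM (0.31 ± 0.35 SE, adjusted p = 0.956, edgeR).

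Most UMIs of Cd55, the membrane regulator, lay in lymphocytes. B cells held 58.2% of its UMIs, at 433 and 475 CPM against 290 and 479 CPM. Only the first library labelled ERG CKO was low, and the difference was not called (log2 fold change -0.22 ± 0.25 SE, adjusted p = 0.942, edgeR, in a class where 0.311% of genes were called). T cells held 19.7%, at 59.5 and 60 CPM against 78.6 and 78.2 CPM. The libraries of each group lay close together and the groups apart, yet the difference did not pass the adjustment (log2 fold change 0.40 ± 0.14 SE, unadjusted p = 0.0163, adjusted p = 0.85, edgeR; 0.0477% of genes called in T cells). NK cells had 29.5 and 17.4 CPM against 11.1 and 45.6 CPM, with overlap and no call (0.0194% of genes called in NK cells). In ECs Cd55 stood at 6.22 and 7.21 CPM against 5.76 and 4.34 CPM (log2 fold change -0.42 ± 0.36 SE, adjusted p = 0.651, edgeR). Alveolar type 2 cells held 2.5% of the UMIs, at 60.7 and 62 CPM against 47.7 and 25.5 CPM. Their level in the libraries labelled WT was like that of T cells, and the class was not tested.

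The other genes of the pathway were taken from a list of 48 symbols, of which 42, the members included, were in the matrix. Of the 33 that are not members, 62 pairs of gene and class could be tested. In 2 of them the gene rose in cells labelled ERG CKO, in 0 it fell, and 60 were not called by edgeR. They were 1 of 9 tested in ECs, where 3.25% of all genes were called, and 1 of 6 tested in dendritic cells, where 0.714% were. Counts this small say little of the pathway. DESeq2 called the same 2, and 10 pairs had an unadjusted p under 0.05. In ECs Clu, a fluid-phase inhibitor of the terminal complex, stood at 317 and 295 CPM against 505 and 515 CPM and rose (log2 fold change 0.69 ± 0.13 SE, adjusted p = 0.0301, edgeR). The call was lost without either library labelled WT (adjusted p of 0.141 and 0.253, edgeR). Within the EC cluster led by Ednrb, Clu differed by 0.10 on the log2 scale and was not called (adjusted p = 0.775, edgeR), at 938 and 890 against 994 and 980 CPM, and in the remaining ECs by 0.78 (adjusted p = 0.0818, edgeR). In the cluster led by Emcn and F8, not tested alone, it stood at 148 and 146 against 465 and 425 CPM. In the other clusters the groups lay closer or overlapped, as in that led by Slc6a2, at 599 and 253 against 402 and 444 CPM. The cluster led by Ednrb made up 56 of 587 and 91 of 709 ECs labelled WT and 152 of 750 and 130 of 523 labelled ERG CKO. In dendritic cells Cfp (properdin), which stabilises the alternative pathway enzyme, stood at 121 and 98.7 CPM against 288 and 361 CPM and rose (log2 fold change 1.58 ± 0.23 SE, adjusted p = 0.00778, edgeR).

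Among the non-members that led a role, Hc, the gene of C5, stood at 1220 and 1190 against 1250 and 1220 CPM in alveolar type 2 cells. C7, a terminal component, stood at 438 and 655 against 665 and 468 CPM in alveolar fibroblasts, and Colec12, a collectin, at 735 and 613 against 811 and 660 CPM in the same class. Itgb2, the shared chain of complement receptors 3 and 4, stood at 1150 and 1220 against 1220 and 1410 CPM in non-classical monocytes (log2 fold change 0.10 ± 0.12 SE, adjusted p = 0.966, edgeR). Cd59a, a membrane regulator, had 787 CPM in the 2 adventitial fibroblasts of the second library labelled ERG CKO and at most 32.1 CPM in those of the other libraries.

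Across the 16 classes, the genes whose mean log2(CPM + 10) followed each member most closely were ranked among 7084 genes. For the mean of the C1q chains they were H2-M2, Ms4a7 and Fcrls (Pearson's r of 0.98, 0.97 and 0.96). Ms4a7 was a marker of the class. For Serping1 they were the collagens Col3a1 and Col1a2 and the collagen-processing gene Pcolce (0.99 each), and for C4b they were C2, Mfap5 and Gpc3 (0.99, 0.98 and 0.98). For C5ar1 they were its relative C5ar2, Cxcl2 and Alox5 (0.98, 0.95 and 0.95). The likeness was weaker for C3 (Rhou, Mgst1 and Igfbp6, at most 0.88), C3ar1 (Gpr34, Mmp13 and H2-M2, at most 0.85) and Cd55 (Blk, Tmem108 and Cxcr5, at most 0.84). These values describe 16 points that share libraries.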

How the data were processed

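Whole-lung cell suspensions (4 libraries) had been run on the 10x Genomics GemCode platform and sequenced on an Illumina NextSeq 500. The submitters' processing notes name Cell Ranger 3.1.0 and build mm10. The authors deposited whole-number UMI counts for each gene in each cell, without normalization. The file held 0 columns of cells with no sample, 13 rows that repeat a symbol were kept apart, and every cell had at least 300 genes and 500 UMIs. The study's own quality filter kept fewer cells, and its thresholds are not given in the sources used here. The members and the gene lists were chosen with earlier results of these data known.

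Cells were clustered with Seurat 5.3.0 (2000 variable genes without pathway genes, Erg, Xist and Y-linked genes, CCA alignment, 30 dimensions, resolution 0.8), and mononuclear phagocytes and stroma were clustered again (20 dimensions, resolution 0.6). A cluster was named when at least 3 markers were detected in 10% of its cells at a log2 fold of 1 over the other cells. Clusters with markers of a second class or very low depth stayed unnamed. Doublets were called with Scrublet in scanpy 1.11.5 (66 cells) and kept in the main analysis, and 7 barcodes occurred in more than 1 library.

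Counts were summed per library and class and tested with edgeR 4.0.16 (TMM, filterByExpr, quasi-likelihood test, Benjamini-Hochberg over all genes of a fit, threshold 0.05). DESeq2 1.42.0 was an alternative. Fits on names from the clustering of all cells, without C1q-rich cells, without ECs holding fibroblast genes and on separate EC clusters were chosen after seeing the data. Scripts were tested on simulated data. CPM are counts per 1000000 UMIs of the class in a library. Values are given as the libraries labelled WT, replicates 1 and 2, against those labelled ERG CKO, replicates 1 and 2. Nothing states that the replicates were handled apart after harvest, so p-values measure the spread between these libraries. Intervals on counts cover counting error only. Members were named in their leading class and in any class with at least 10% of their UMIs, and other pathway genes when called or leading their role. Not every such gene is reported here. Names rebuilt here may differ from those of the study.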

Additional observations from a re-analysis of the deposited data

Results flagged for a closer look

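C3 had differences of opposite sign between classes, none of them called with the cell names used in the report. It was higher in both libraries labelled ERG CKO in alveolar fibroblasts and lower in both in classical monocytes, and the differences in mean log2(CPM + 10), 1.40 and -0.34, differed by 1.75. Between alveolar macrophages (0.47) and classical monocytes the difference was 0.81. C4b was higher in alveolar fibroblasts (2.18) and lower in interstitial macrophages (-1.02, from 13 UMIs in all), a difference of 3.20. None of these differences between classes was itself tested.

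In the 1976 cells of no named class, which entered no comparison, C1qa stood at 10.7 and 1.36 CPM in the libraries labelled WT and at 34.5 and 13.3 CPM in those labelled ERG CKO, a mean of 23.9 CPM. Of these cells 7 held at least 10 C1q UMIs, 1 of them in a library labelled WT.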

How the results depend on the processing

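The 4 calls of members within classes became 8 without the filter on low counts, 0 with cells thinned to 1000 UMIs and 1 to 6 when a library was left out. Of alternatives chosen after seeing the data, names from the clustering of all cells gave 8 and leaving out cells rich in C1q outside interstitial macrophages gave 2. In whole-lung sums the 0 calls became 3 with DESeq2, 3 without the filter and 1 with thinning. The 6 calls of pathway genes within classes became 14 without the filter, 1 with thinning, 10 with names from the clustering of all cells and 2 to 10 without a library. With the replicate block they became 10, while the members stayed at 4 calls. Replicate numbers went with sex, but 2 pairs do not establish a pairing, and the correlation of same-numbered deviations ran from -0.242 in neutrophils to 0.287 in ECs. The difference in the C1q share of the top cells was -0.654 points for the top 5% of cells and -6.83 to -20.1 points without a library.

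No value changed sign while called. C1qa in interstitial macrophages turned to -0.0207 with at least 500 genes per cell and -0.111 with no CCA alignment. Leaving out 1 library at a time gave -0.137 to 0.202 for C1qa and -0.372 to 0.924 for C3ar1 in interstitial macrophages, -0.466 to 0.0164 for C5ar1 in neutrophils and -0.59 to 0.0828 for Cd55 in B cells. C3ar1 was -0.139 without WT replicate 2. Endothelial C1qa and C1qc lost their calls without WT replicate 1, WT replicate 2 or ERG CKO replicate 1, and C1qb without WT replicate 2. Serping1 in ECs lost its call at 10% mitochondrial UMIs (adjusted p = 0.0503, edgeR) and without CCA alignment, where its log2 fold change was 1.03. C5ar1 in non-classical monocytes was called higher without WT replicate 2 (1.67). The causes were not tested. With 2 to 8 adventitial fibroblasts and 7 to 44 alveolar fibroblasts per library, the fibroblast values rest on few cells. So do those of mural cells, alveolar type 2 cells and mast cells or basophils.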

Other observations

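Over whole lungs the largest fold among the other pathway genes was that of Vtn (vitronectin), an inhibitor of the terminal complex that mural cells held. It stood at 15.1 and 12.4 CPM in the libraries labelled WT and at 2.79 and 1.86 CPM in those labelled ERG CKO (log2 fold change -2.53 ± 0.25 SE, adjusted p = 0.0896, edgeR; called by DESeq2). Mural cells numbered 48 and 32 against 18 and 4, and within them Vtn stood at 436 and 721 against 289 and 534 CPM, with overlap. It was chosen here after its values were seen.

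With names from the clustering of all cells, C1qa, C1qb and C1qc were called in alveolar fibroblasts, where no cell labelled WT held a C1q UMI and the levels of C1qa were 90 and 313 CPM in the libraries labelled ERG CKO. They passed the filter on low counts only through these libraries, so the direction was set beforehand. The second clustering of stroma left groups of 135, 115 and 83 cells unnamed, for platelet markers, endothelial markers and low depth. Names from the clustering of all cells keep such cells. At resolution 1.2 C1qa stood at 31.2 and 0 CPM in alveolar fibroblasts labelled ERG CKO. In the main naming 146 C1q UMIs of the second library labelled ERG CKO lay in 1 alveolar fibroblast that also held Apoe and Ms4a7.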
